A study of Saccharomyces cerevisiae with 136 samples.

Results

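The 10 genes described here, URA1, URA2, URA4, URA5, URA6, URA7, URA8, URA10, FUR1 and FUR4, encode enzymes of pyrimidine nucleotide synthesis and an enzyme and a permease of uracil salvage in budding yeast. They were chosen by gene identifier from the 5997 genes of the table, URA1 because earlier results of these cells had placed it among the genes with the lowest values in the 36-h relative to the 2-h age group, and the others as genes of its pathway. The age differences of URA1 are therefore given as a description. Haploid wild-type BY4742 cells, named BY4741 in the sample titles, were grown on SD agar plates, isolated by hand 2, 16 or 36 h after they were born and sequenced as 1 Smart-seq2 library each, with ERCC spike-in RNA added to the lysis buffer. The table held 37 cells of the 2-h, 43 of the 16-h and 45 of the 36-h age group. By the generation recorded for each cell, the study split the later groups at their mean into slow-dividing and fast-dividing subgroups, which gave 17 cells in 16-h/S, 26 in 16-h/F, 18 in 36-h/S and 27 in 36-h/F. Neither the labels nor the paper names separate cultures, so every group counted as 1 sample, no p value is given, and each SD below is the spread among cells.

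Pyrimidine synthesis begins with Ura2, a large enzyme that makes carbamoyl phosphate and joins it to aspartate and that is inhibited by the end product UTP. Ura4 closes the ring to dihydroorotate, Ura1 oxidizes it to orotate, and Ura5 or its minor counterpart Ura10 attaches the ribose phosphate to give OMP, which Ura3 converts to UMP. Ura6 turns UMP into UDP, and the CTP synthases Ura7 and Ura8 turn UTP into CTP. Cells can also take up uracil through the permease Fur4 and convert it to UMP with Fur1. BY4742 carries a deletion of URA3, so its UMP comes from salvage of supplied uracil. Whether uracil was added to the plates is not given in the sources used here. The transcription factor Ppr1, which senses the intermediates dihydroorotate and orotate, activates genes of this pathway, among them URA1, URA3 and URA4. Expression of URA3, HIS3, LEU2 and MET17 was not analysed here.

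Ppr1 is known to bind a pair of CGG triplets that face each other across 6 bases, so the upstream regions of URA1 and URA4 are shown. In the R64 reference genome, from 250 bases before to 50 bases after each of 6020 protein-coding starts, the full site, TTCGG and CCGAA with any 6 bases between them, was found on either strand in 1 promoter (0.0166%), which was that of URA1. Its core, CGG and CCG with any 6 bases between them, lies within the full site and was found in 75 promoters (1.25%). URA1 held it in 2 places, URA4 and URA3 in 1 place each, and the other 8 genes held none. The stretches lie at chrXI:24985-25064 on the plus strand, 230 to 151 bases before the start codon of URA1, and at chrXII:963625-963684 on the plus strand, 160 to 101 bases before that of URA4. Capitals mark the full site or, where only the core matched, the core.
URA1: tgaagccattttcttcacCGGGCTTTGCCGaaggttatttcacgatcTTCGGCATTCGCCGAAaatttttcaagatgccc
URA4: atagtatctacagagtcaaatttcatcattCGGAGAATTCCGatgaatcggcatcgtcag
A match describes letters in these windows and was not tested as a binding site. PPR1 itself had reads in 4 of 37 cells at 2 h, 6 of 43 at 16 h and 3 of 45 at 36 h.

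URA1 (YKL216W, chromosome XI, 25215 to 26159, plus strand), the dihydroorotate dehydrogenase gene, was read in all 37 cells at 2 h, where its log2 normalized counts, the log2 of normalized reads plus 1, had a lowest value of 5.53, a median of 7.99 and a highest of 9.29. At 16 h it had reads in 32 of 43 cells, with a lowest value of 0, a median of 6.72 and a highest of 8.32. At 36 h only 22 of 45 cells had reads, the median was 0 and the highest value was 8.15. The lowest 2-h cell lay above the median of the 36-h cells, and the ranges of the groups overlapped from 5.53 upward. The mean was 7.84 ± 0.95 in 2-h cells, 4.97 ± 3.16 in 16-h cells and 2.44 ± 2.86 in 36-h cells. Between the 36-h and 2-h age groups the mean differed by −5.40, more than either SD, and this was the lowest difference among the 1977 genes that were read in no fewer than 50% of cells in at least 1 of both groups. The 16-h mean differed from the 2-h mean by −2.87, less than the SD at 16 h, the third lowest of 1924 genes. The 36-h mean differed from the 16-h mean by −2.54, less than either SD.

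**Figure D1:**
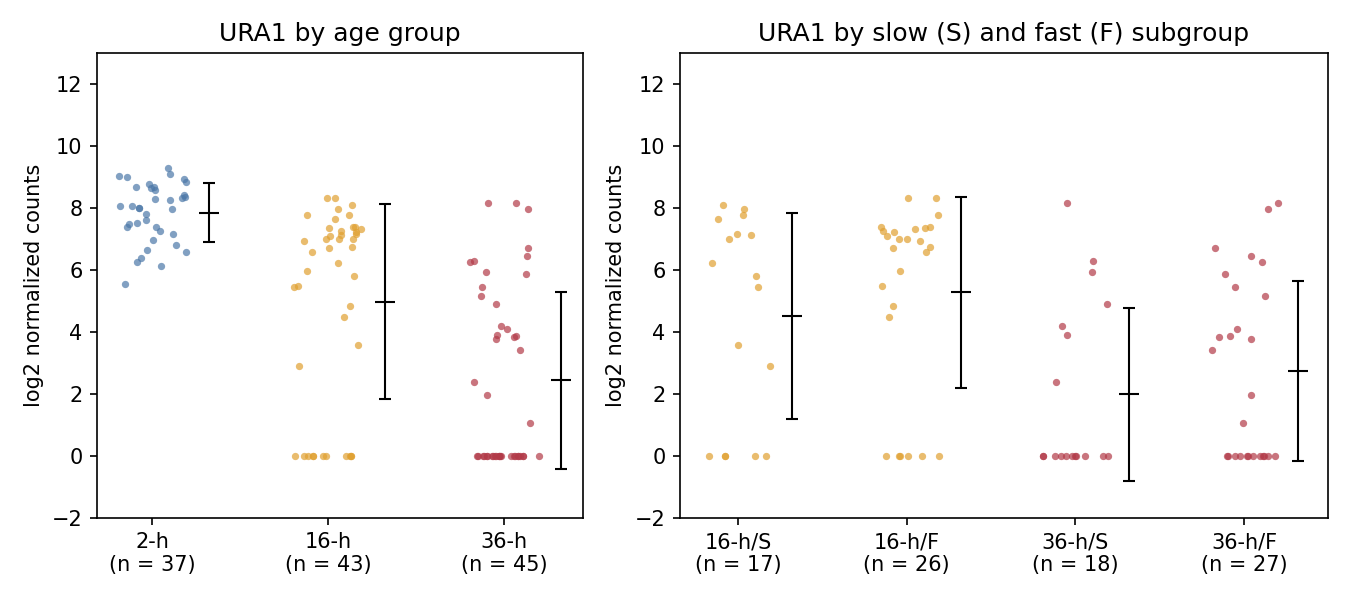
URA1 in single cells as log2 normalized counts, by age group (left) and by slow-dividing (S) and fast-dividing (F) subgroup (right); points are cells, and the bar beside them is the mean ± SD among cells, which can reach below 0. All 37 cells at 2 h lie at or above 5.53, while 11 of 43 cells at 16 h and 23 of 45 cells at 36 h lie at 0.

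A smaller share of cells with reads and a lower level in the cells that had reads both entered these means. URA1 had reads in 100% of 2-h cells (exact Clopper-Pearson 95% interval 90.5% to 100%), in 74.4% of 16-h cells (58.8% to 86.5%) and in 48.9% of 36-h cells (33.7% to 64.2%). These intervals cover counting error only, since Smart-seq2 reads without molecular identifiers are not independent molecules. Among cells with reads the mean was 7.84 at 2 h, 6.68 at 16 h, and 4.98 for the 36-h age group, and the median number of URA1 reads in those cells was 314, 174 and 31. After every cell was thinned to 40000 reads, 37, 31 and 21 cells still had URA1 reads at 2, 16 and 36 h, so thinning took away at most 1 cell per group. The squared coefficient of variation of the normalized counts was 0.315 in 2-h cells, 0.858 in 16-h cells and 4.50 in 36-h cells.

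Set against the other members per kilobase of coding length, URA1 had the highest mean at 2 h, with 290 ± 163 normalized counts per kb, and at 16 h, with 106 ± 98.2. At 36 h it stood in place 5 of the 10 members with 34.9 ± 74.0 normalized counts per kb. Its share of the summed level per kb of all 10 members was 35.8% at 2 h, 24.9% at 16 h, and 8.14% for the 36-h age group. There the first place was held by URA5 (109 ± 152 normalized counts per kb) and the next by URA6 (83.8 ± 132), and each SD exceeded its mean, so the order of these neighbours did not differ beyond the spread among cells.

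URA2 (YJL130C, chromosome X, 165723 to 172367, minus strand), which encodes the first and rate-controlling enzyme, was read in more cells than URA1 at both later times. It had reads in 35 of 37 cells at 2 h, with a median of 8.69 and a highest value of 10.47 log2 normalized counts, in 41 of 43 cells at 16 h, with 7.86 and 12.16, and in 37 of 45 cells at 36 h, with 7.58 and 11.36. The lowest value was 0 in each age group. Its mean was 8.27 ± 2.55 in 2-h cells, 7.58 ± 2.27 in 16-h cells and 6.14 ± 3.42 in 36-h cells, and its difference was −2.13 for 36 h against 2 h and −0.68 for 16 h against 2 h, both less than the spread among cells. At 36 h both URA1 and URA2 had reads in 20 cells, URA2 alone in 17, URA1 alone in 2 and neither in 6. All 32 cells with URA1 reads at 16 h also had URA2 reads.

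URA4 (YLR420W, chromosome XII, 963785 to 964879, plus strand), the dihydroorotase gene with a single core site in its promoter, was lower at both later times by about the same amount. Its log2 normalized counts had a median of 4.71 and a highest value of 8.09 at 2 h, 2.61 and 7.90 at 16 h, and 1.89 and 8.10 at 36 h, with a lowest value of 0 in each. Reads were found in 32 of 37, 30 of 43 and 30 of 45 cells at 2, 16 and 36 h. The mean was 4.40 ± 2.55, 2.93 ± 2.48 and 2.80 ± 2.66, a difference of −1.61 for 36 h against 2 h, of −1.47 for 16 h against 2 h and of −0.14 for 36 h against 16 h. Each difference was less than the SDs of the groups compared.

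**Figure D2:**
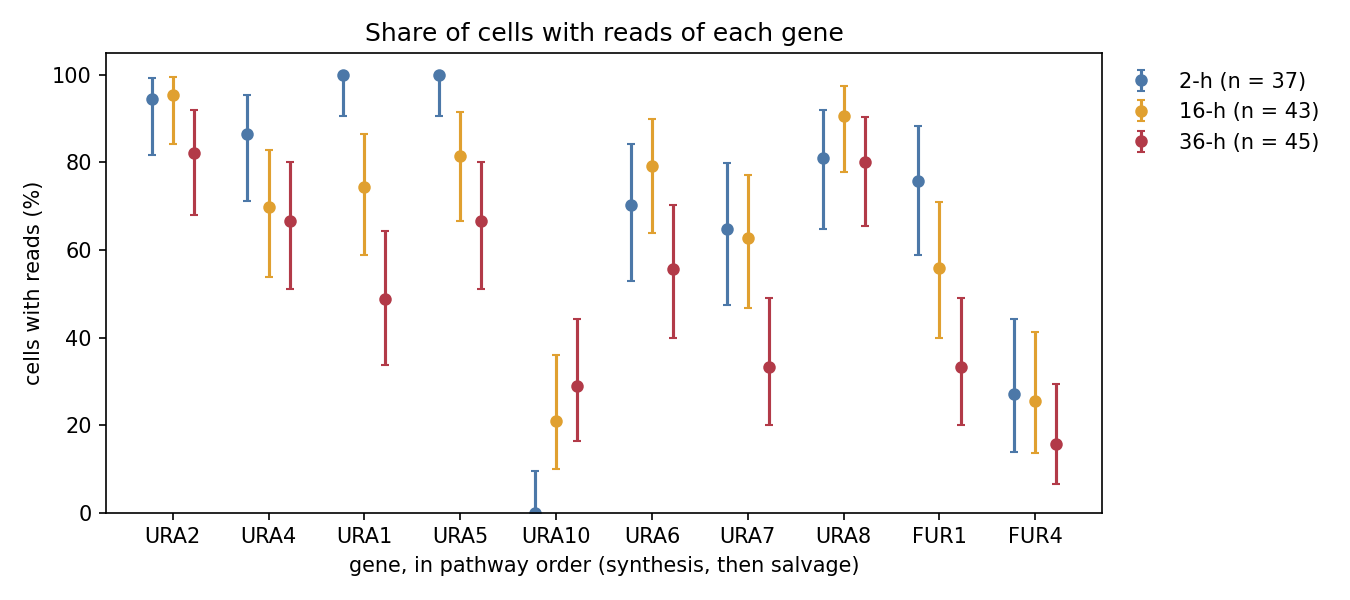
Share of cells with reads of each of the 10 genes at 2, 16 and 36 h, in percent, with exact Clopper-Pearson 95% intervals that cover counting error only. The share of URA1 is 100% at 2 h, 74.4% at 16 h and 48.9% at 36 h, whereas URA10 is at 0% at 2 h and at 28.9% at 36 h.

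The step after URA1 is shared by a pair of genes with age differences of opposite sign. URA5 (YML106W, chromosome XIII, 56773 to 57453, plus strand), the major orotate phosphoribosyltransferase (OPRTase) gene, had reads in all 37 cells at 2 h, in 35 of 43 at 16 h and in 30 of 45 at 36 h. Its log2 normalized counts ran from 1.03 through a median of 6.64 to 8.93 at 2 h, from 0 through 5.73 to 7.92 at 16 h, and from 0 through 5.55 to 8.90 at 36 h. The mean was 6.15 ± 1.88, 4.59 ± 2.69 and 4.13 ± 3.19, which is −2.02 for 36 h against 2 h and −1.56 for 16 h against 2 h. Among cells with reads the mean was 6.15 at 2 h, 5.64 at 16 h, and 6.19 for the 36-h age group, so the 36-h cells that had URA5 reads stood at the 2-h level, unlike those of URA1.

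URA10 (YMR271C, chromosome XIII, 806865 to 807548, minus strand), the minor OPRTase gene, had no reads in any of the 37 cells at 2 h, which allows a share of up to 8.11% if 3 cells are taken as the limit of a count of 0, or 9.49% by the exact interval. It had reads in 9 of 43 cells at 16 h (20.9%, 10.0% to 36.0%) and in 13 of 45 at 36 h (28.9%, 16.4% to 44.3%). The median was 0 in each group, and the highest value was 7.42 log2 normalized counts at 16 h and 9.18 at 36 h. Over the whole group, URA10 took 48.2 of every 1000000 reads at 16 h and 88.7 at 36 h. Reads are not independent molecules, so no fold against the 2-h cells is given. These sums came from the 9 and 13 cells with reads, in which the mean was 4.63 log2 normalized counts at 16 h and 5.90 at 36 h. URA10 had reads in too few cells to pass the filter of 50% in any comparison. At 36 h URA5 and URA10 had reads together in 10 cells, URA5 alone in 20, URA10 alone in 3 and neither in 12.

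The coding sequences of URA5 and URA10 were 69.5% identical over 675 aligned bases, and those of URA7 and URA8 were 72.2% identical over 1731. The longest identical stretch of each pair is shown because reads can be confused between copies only where the copies agree. It held 11 bases for the first pair, from base 64 of URA5 and base 73 of URA10, and 17 bases for the other, from base 679 of both genes.
URA5 and URA10: ctaagatttgg
URA7 and URA8: aagattgccatgttttg
Every stretch of 50 bases from the 10 genes occurred once in the R64 genome, and none of the 10 overlapped another annotated gene.

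**Figure D3:**
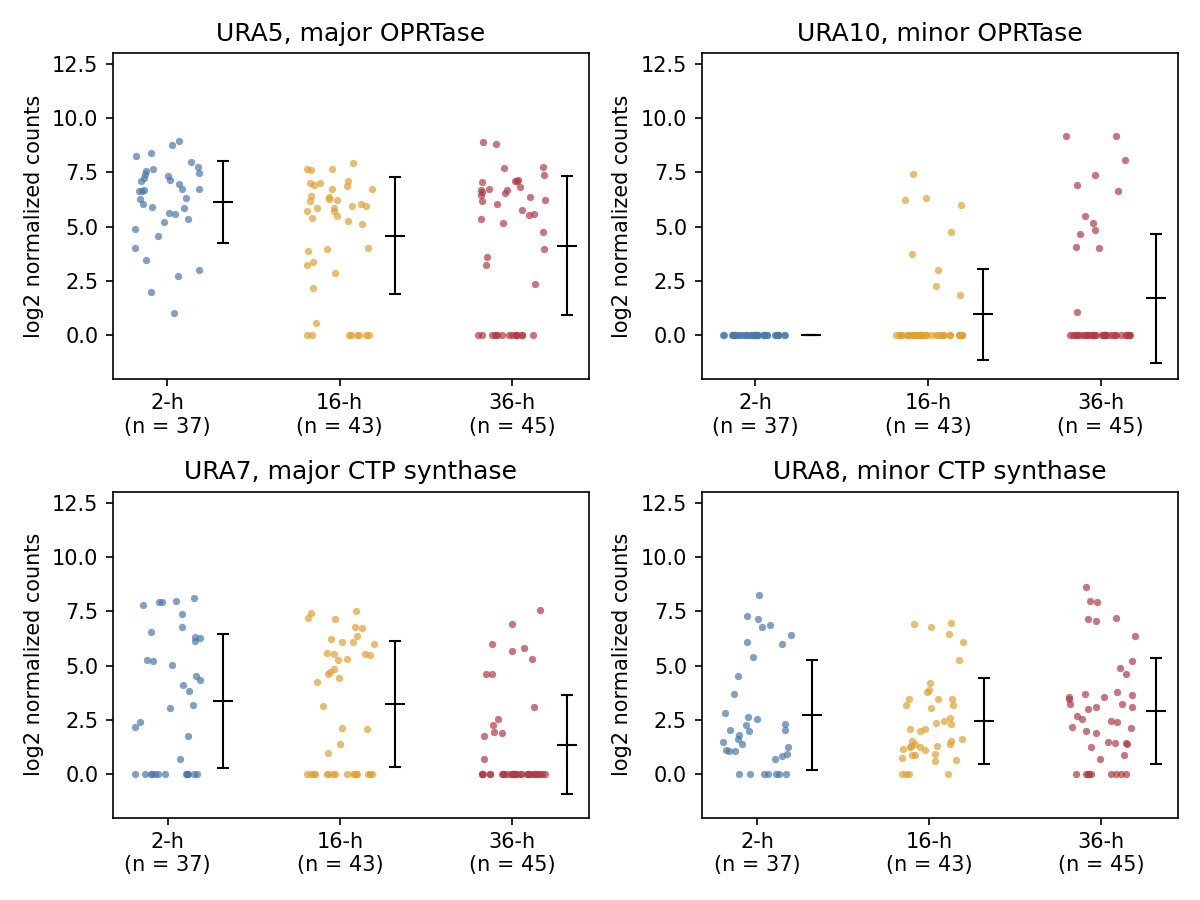
Log2 normalized counts of the OPRTase genes URA5 and URA10 (top) and the CTP synthase genes URA7 and URA8 (bottom) in single cells at 2, 16 and 36 h; points are cells, and bars are the mean ± SD among cells. URA10 lies at 0 in all 37 cells at 2 h and above 0 in 13 of 45 cells at 36 h, and URA7 lies above 0 in 24 of 37 cells at 2 h and 15 of 45 at 36 h.

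For URA6 (YKL024C, chromosome XI, 392526 to 393140, minus strand), the uridylate kinase gene, the age groups were closer together. Reads were found in 26 of 37 cells at 2 h, 34 of 43 at 16 h and 25 of 45 at 36 h, and values ran from 0 in each group up to 7.88, 7.55 and 8.43 log2 normalized counts. The mean was 4.10 ± 2.96, 3.84 ± 2.45 and 3.21 ± 3.17, with a difference of −0.89 between 36 h and 2 h, well inside the spread among cells.

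Of the CTP synthase genes, URA7 (YBL039C, chromosome II, 143989 to 145728, minus strand), which encodes the major enzyme, was similar at 2 h and 16 h and lower at 36 h. Its log2 normalized counts had a median of 3.16 and a highest value of 8.12 at 2 h, 4.22 and 7.51 at 16 h, and 0 and 7.56 at 36 h. Reads were found in 24 of 37, 27 of 43 and 15 of 45 cells. The mean was 3.37 ± 3.07, 3.22 ± 2.89 and 1.35 ± 2.28, a difference of −1.87 for 36 h against 16 h and of −2.02 for 36 h against 2 h. Both differences were less than the SDs of the groups compared. URA8 (YJR103W, chromosome X, 620754 to 622490, plus strand), which encodes the minor enzyme, differed by 0.20 for 36 h against 2 h, with means of 2.71 ± 2.53, 2.45 ± 1.96 and 2.91 ± 2.45 and reads in 30 of 37, 39 of 43 and 36 of 45 cells. Its levels rested on few reads, with a median of 5, 4 and 8.5 reads in the cells that had any, and after thinning to 40000 reads it was read in 45.9%, 55.8% and 53.3% of cells. SOD1, a superoxide dismutase gene at 8.63, 9.15 and 10.19 mean log2 normalized counts, faces URA8 and ends 60 bases downstream of it. The strand setting of the counting is not given in the sources used here, and the part of SOD1 in the URA8 reads was not tested. The correlation between both genes across cells was −0.08 in 2-h cells, 0.24 in 16-h cells and 0.04 in 36-h cells.

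The salvage genes were read in fewer cells than the first genes of synthesis. FUR1 (YHR128W, chromosome VIII, 362115 to 362765, plus strand), which encodes the uracil phosphoribosyltransferase, had reads in 28 of 37 cells at 2 h, 24 of 43 at 16 h and 15 of 45 at 36 h. Its median was 2.90, 1.79 and 0 log2 normalized counts and its highest value 6.92, 6.75 and 6.87. The mean was 3.17 ± 2.54, 2.39 ± 2.50 and 1.63 ± 2.47, so it differed by −1.53 between 36 h and 2 h, whereas the mean among cells with reads was 4.19, 4.29 and 4.90. For FUR1 the later groups thus differed in the share of cells with reads and not by a lower level in those cells. FUR4 (YBR021W, chromosome II, 281443 to 283344, plus strand), the uracil permease gene, had reads in 10 of 37, 11 of 43 and 7 of 45 cells and means of 1.48 ± 2.63, 1.27 ± 2.43 and 0.98 ± 2.47.

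Counted together, 8 of the 10 members passed this filter of 50% in each comparison of age groups, and URA10 and FUR4 did not. Between 36 h and 2 h, 6 members were lower by at least 1 on the log2 scale (URA1, URA2, URA4, URA5, URA7 and FUR1) and none was higher, whereas among all 1977 genes that passed 25.1% were lower and 32% higher. URA1 was chosen on this contrast and the others with its results known, so nothing is read from the count. Between 16 h and 2 h, 3 members were lower (URA1, URA4 and URA5) and none was higher, against 11.2% lower and 15.6% higher of 1924 genes. This comparison uses the 2-h cells of the contrast on which URA1 was chosen, so nothing is read from its count either. Between 36 h and 16 h, 3 members were lower (URA1, URA2 and URA7) and none was higher, against 15.3% lower and 20.8% higher of 2047 genes. Of these 3, URA1 (read in 48.9% of 36-h cells) and URA7 (33.3%) passed only through the 16-h cells. URA10, with a difference of 0.74, did not pass, so nothing is read from this count. The first 2 of these comparisons share the 2-h cells. The median difference over all 10 members was −1.57 for 36 h against 2 h and −0.47 for 16 h against 2 h, and over all 5997 genes it was 0.23 and 0.11. The members were chosen with these results known, so nothing is read from the medians either. The number of the 10 members with reads in a cell was 7.0 ± 1.39 at 2 h, 6.56 ± 2.00 at 16 h, and 5.11 ± 2.18 for the 36-h age group. The number of genes detected per cell was 2078 ± 268 at 2 h and 2229 ± 552 at 36 h, and the part of detection in the number of members read was not tested.

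**Figure D4:**
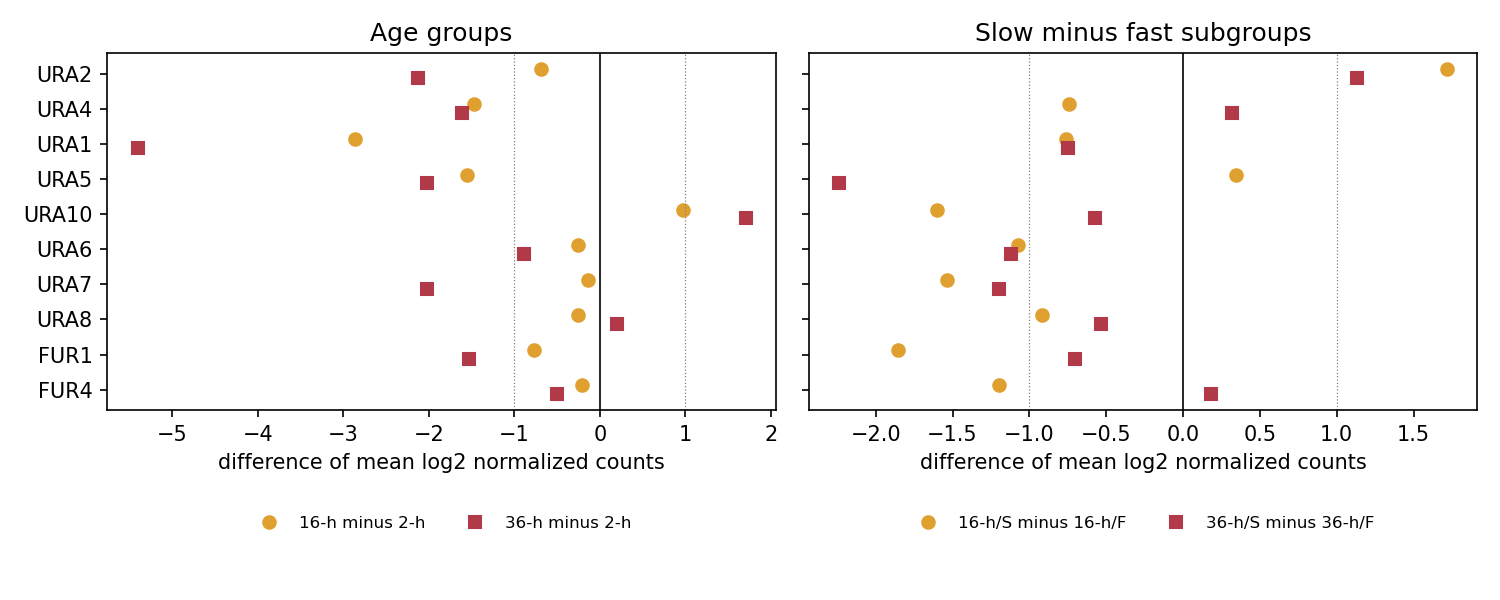
Differences of mean log2 normalized counts of the 10 genes, between later age groups and the 2-h age group (left) and between slow-dividing and fast-dividing subgroups of the same age (right); dotted lines mark a difference of 1 in either direction. URA1 lies farthest left at −5.40 between 36 h and 2 h, and URA2 lies at 1.72 between 16-h/S and 16-h/F.

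Between slow-dividing and fast-dividing cells of the same age, other members differed more than URA1. URA1 had reads in 12 of 17 cells of 16-h/S, with a median of 5.79 log2 normalized counts, against 20 of 26 cells of 16-h/F, with a median of 6.84. Its mean was 4.51 ± 3.32 in 16-h/S and 5.27 ± 3.07 in 16-h/F, and 1.98 ± 2.79 in 36-h/S and 2.74 ± 2.91 in 36-h/F, differences of −0.76 and −0.75 that were far inside the SDs. With only cells at an ERCC share of at most 0.5, the 16-h difference turned to 0.66. For URA1 the S and F subgroups of each age lay nearer to each other than the age groups did. URA1 was chosen by its age difference, so nothing is read from this order.

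URA2 was higher in slow-dividing cells. In 16-h/S all 17 cells had reads, and their log2 normalized counts ran from 7.05 through a median of 8.62 to 12.16. In 16-h/F, 24 of 26 cells had reads, and values ran from 0 through 7.74 to 9.75. No cell of 16-h/S lay below 7.05, while the ranges overlapped above that value. The mean was 8.62 ± 1.30 in 16-h/S and 6.90 ± 2.52 in 16-h/F, a difference of 1.72 that was larger than the SD of 16-h/S, smaller than that of 16-h/F and the 20th highest of 2269 genes, and the 16-h/S cell was the higher one in 72.9% of all pairs of cells. It ran from 1.29 to 1.64 under the other scalings, cells and averages tried. At 36 h the mean was 6.82 ± 2.99 in 36-h/S and 5.68 ± 3.66 in 36-h/F, with reads in 17 of 18 and 20 of 27 cells, and the difference of 1.13 ran from 0.23, with only cells at an ERCC share of at most 0.5, to 0.98 under the alternatives, below 1 in each.

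**Figure D5:**
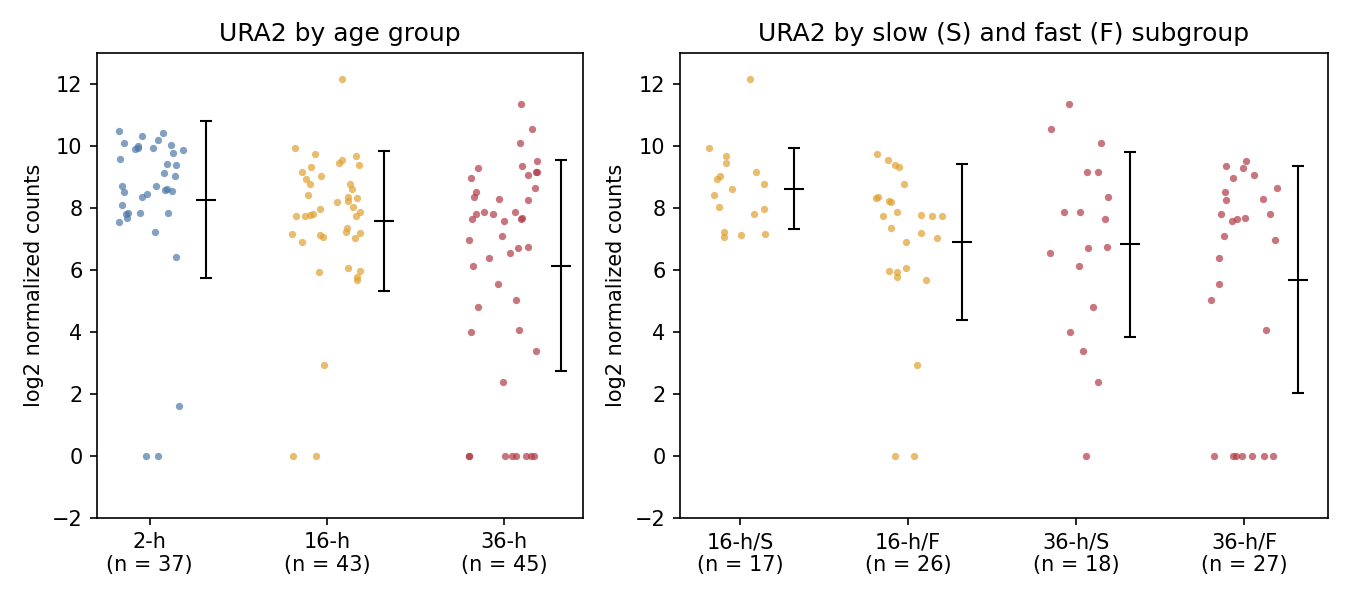
URA2 in single cells as log2 normalized counts, by age group (left) and by slow-dividing (S) and fast-dividing (F) subgroup (right); points are cells, and bars are the mean ± SD among cells. All 17 cells of 16-h/S lie at or above 7.05, and the cells of 16-h/F reach down to 0.

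URA10 reads at 16 h came from fast-dividing cells, with 0 of 17 cells in 16-h/S, which allows a share of up to 17.6% by the limit of 3 cells or 19.5% by the exact interval, and 9 of 26 cells in 16-h/F (34.6%, 17.2% to 55.7%). At 36 h they came from both, with 4 of 18 cells in 36-h/S and 9 of 27 in 36-h/F. For its counterpart URA5 the larger difference in the main values was at 36 h. Under the alternatives its difference ran from −2.25 to −1.27 at 36 h and from 0.20 to 1.65 at 16 h, and whether the ages differ in this was not tested. Reads of URA5 were found in 9 of 18 cells of 36-h/S, with a median of 1.19 and a highest value of 7.71 log2 normalized counts, and in 21 of 27 cells of 36-h/F, with 6.39 and 8.90. The mean was 2.79 ± 3.11 in 36-h/S and 5.03 ± 2.97 in 36-h/F, a difference of −2.24 that is less than either SD, and 4.80 ± 2.68 in 16-h/S and 4.46 ± 2.74 in 16-h/F, a difference of 0.35. FUR1 was lower in 16-h/S, with 1.27 ± 1.86 and reads in 7 of 17 cells, than in 16-h/F, with 3.13 ± 2.62 and 17 of 26 cells. Its difference of −1.85 was less than either SD. URA7 had means of 2.30 ± 3.03 in 16-h/S and 3.83 ± 2.68 in 16-h/F.

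Of the 8 members that passed the filter between 16-h/S and 16-h/F, 3 were lower by at least 1 (URA6, URA7 and FUR1) and 1 was higher (URA2), where 21.2% of 2269 genes were lower and 5.46% higher. URA7 (read in 41.2% of 16-h/S and 76.9% of 16-h/F cells) and FUR1 (41.2% and 65.4%) passed only through the 16-h/F cells. Nothing is therefore read from this count. Of the 6 that passed between 36-h/S and 36-h/F, 2 were lower (URA5 and URA6) and 1 was higher (URA2), where 31.2% of 2063 genes were lower and 9.5% higher, so the lower share of the members was near that of all genes. URA6 (read in 44.4% of 36-h/S and 63.0% of 36-h/F cells) passed only through the 36-h/F cells. With only cells at an ERCC share of at most 0.5, the 36-h difference of URA6 was 0.071 in place of −1.12, and no member was higher by at least 1 under any of the other 5 scalings, cells and averages. Fewer genes were detected per cell in the slow-dividing subgroups, with 2112 ± 534 in 16-h/S and 2505 ± 511 in 16-h/F, and 1940 ± 516 in 36-h/S and 2421 ± 496 in 36-h/F, and its part in the lower members was not tested.

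With the generation of the cells, URA2 had a Pearson correlation of −0.42 across the 43 cells at 16 h (Spearman −0.37), of −0.46 once the 2 cells with generations farthest from the median were left out, and of −0.45 given the number of genes detected. At 36 h the same correlation was 0.02 across 45 cells. URA1 had 0.15 at 16 h and 0.01 at 36 h, and given the number of genes detected it had 0.01 and −0.25. With those 2 cells left out of each age group, URA1 had 0.27 and 0.15. URA5 had −0.07 at 16 h and 0.32 at 36 h, where it was 0.16 given the number of genes detected. Cells share no library, but values at 0 and differences in depth enter each of these correlations, which are descriptions.

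Across cells of the same age, the members were weakly correlated. The median Pearson correlation over pairs of members was 0.04 at 2 h (36 pairs), 0.11 at 16 h (45 pairs) and 0.17 at 36 h (45 pairs), and given the number of genes detected it was −0.02, 0.05 and 0.02. The highest was that of URA1 with URA5 at 16 h, 0.54, or 0.39 given the number of genes detected, and at 2 h the same pair had −0.15. URA5 and FUR1 had 0.50 at 36 h, where all 15 cells with FUR1 reads also had URA5 reads. URA1 and URA10 had −0.33 at 16 h and −0.20 at 36 h, or −0.45 and −0.31 given the number of genes detected. The correlation of URA1 with the number of genes detected was 0.04 in 2-h cells, 0.51 in 16-h cells and 0.44 in 36-h cells, and with the ERCC share it was 0.04, −0.50 and −0.41. The part of these measures in the zeros of URA1 was not tested.

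The other genes of pyrimidine metabolism were mixed in direction. Of 16 such genes listed, 15 had a row, 9 with a lower and 6 with a higher mean at 36 h than at 2 h. Between 36 h and 2 h, 7 of them passed the filter. Of these, 1 was lower by at least 1 (FCY2, for the purine-cytosine permease) and 2 were higher, among them YNK1, against 25.1% lower and 32% higher of 1977 genes. FCY2 (read in 56.8% of 2-h and 20% of 36-h cells) passed only through the 2-h cells. YNK1 (43.2% and 86.7%) passed only through the 36-h cells, so nothing is read from these counts. YNK1, the nucleoside diphosphate kinase gene that acts on the products of Ura6, had reads in 16 of 37 cells at 2 h, 35 of 43 at 16 h and 39 of 45 at 36 h, and its mean was 2.15 ± 2.60, 4.20 ± 2.42 and 5.22 ± 2.55 log2 normalized counts. Its difference of 3.08 between 36 h and 2 h exceeded both SDs. CPA1 belongs to arginine synthesis, which makes the same intermediate as Ura2, carbamoyl phosphate. It had means of 6.90 ± 2.82, 4.85 ± 3.49 and 6.81 ± 2.96 at 2, 16 and 36 h. At 36 h all 18 cells of 36-h/S had CPA1 reads, with a mean of 8.16 ± 1.96, against 23 of 27 cells and 5.91 ± 3.19 in 36-h/F.

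In purine synthesis, 13 of 15 genes passed the filter between 36 h and 2 h, of which 6 were lower by at least 1 and 1 was higher (ADE12, by 1.42). Among all 1977 genes that passed, 25.1% were lower and 32% higher, and the list was not tested as a set. The lowest difference of the 15 purine genes was that of IMD4, an IMP dehydrogenase gene with near copies. It had means of 6.67 ± 2.79 at 2 h, 5.08 ± 3.09 at 16 h, and 2.66 ± 3.63 for the 36-h age group and a difference of −4.01. Reads may have been split between IMD4 and its copies, which makes its level uncertain. ADE6, which acts early in the pathway, had 4.56 ± 3.49, 3.83 ± 3.01 and 2.05 ± 3.15.

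Over all 125 cells, the genes whose values were most like those of URA1 among the 1530 that were read in no fewer than 50% of them were NSR1 (Pearson 0.63), TIF4631 (0.63), SNU13 (0.61), ERB1 (0.61) and RRP5 (0.61). Within the 37 cells at 2 h the same genes had −0.03, 0.19, 0.19, 0.15 and −0.06, within the 43 cells at 16 h 0.49, 0.34, 0.55, 0.34 and 0.46, and within the 45 cells at 36 h 0.37, 0.59, 0.38, 0.64 and 0.43. At 36 h the closest of the 1578 genes that had reads in at least 50% of the 36-h cells were ARB1 (0.51), HTB2 (0.50), CBF5 (0.49), YHR049C-A (0.49) and YOR225W (0.48). The higher values of ERB1 and TIF4631 at 36 h are not among these because neither gene had reads in that many cells.

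The cells had 40883 to 833501 reads on genes (median 263709). With 62.9% of all values at 0, the absence of reads in a cell means that the gene was not detectable at this depth and not that it was silent. As a check of the strain, at least 1 of 4 MATalpha-specific genes was read in 30 of 37, 36 of 43 and 27 of 45 cells at 2, 16 and 36 h. At least 1 of the 3 MATa-specific genes with a row was read in 8, 9 and 12 cells. Of these, STE2 was read in 1 of 125 cells, BAR1 had means of 0.22, 0.30 and 0.14 log2 normalized counts, and STE6 had 0.59, 0.39 and 1.11. At 36 h the MATalpha-specific genes had 2.61 (MF(ALPHA)1), 0.85 (MF(ALPHA)2), 0.82 (STE3) and 0.94 (SAG1), so STE6 lay within their range. LYS2, which is deleted in BY4742, was read in 5 of 125 cells. Reads of at least 1 of 6 genes of newborn daughter cells were found in 15 of 37, 30 of 43 and 29 of 45 cells, with summed levels of up to 620, 2584 and 9908 normalized counts and medians of 0, 34.5 and 4.16, and their part in the differences between age groups was not tested.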

How the data were processed

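Single-cell RNA of 125 cells was measured. The authors used HISAT2 2.1.0 for mapping to genome R64, SAMtools 1.1 for sorting and featureCounts for counts per gene. They deposited log2 normalized counts, made by dividing reads by a size factor of the cell, adding 1 and taking the log2. Of 136 cells listed, 11 have no values and were left out, and 304 of 5997 identifiers did not match the annotation. Reads were recovered as whole multiples of 1 step per cell (largest deviation 7.37e-05). Generation, subgroup and ERCC share came from the study's supplementary sample list, not from the labels.

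The members, lists and alternatives were chosen with earlier results of these data known. Named are the members, 2 pathway lists, strain markers and the 5 genes most correlated with URA1, over all cells and within 36-h cells. 1 gene of the lists is not reported here. Means, SDs among cells, differences of mean log2, shares of pairs (ties counted equally for both) and correlations were computed in Python 3.11.15 with numpy 2.4.6, pandas 2.3.3 and scipy 1.17.1, and the procedure was tested on simulated counts. A gene counted as lower or higher at a difference of at least 1, given reads in at least 50% of cells of either group. Alternatives were cells scaled to the same sum, an ERCC share of at most 0.5, thinning to 40000 reads, a pseudocount of 10, ratios of means, other filters, a difference of at least 2, Spearman and partial correlations. The partial correlation between members was chosen after seeing the data.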

Additional observations from a re-analysis of the deposited data

How the results depend on the processing

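No paired analysis was possible because each cell is its own library, its number only names it, and the results come from no test. Of 247 member differences recomputed, 12 changed sign, all of main size 1.12 or less, and the largest of these was URA6 between 36-h/S and 36-h/F, at 0.071 with an ERCC share of at most 0.5. URA1 ran from −5.56 to −3.06 for 36 h against 2 h, from −2.92 to −1.45 for 16 h against 2 h, and from −3.07 to −1.54 for 36 h against 16 h. With a pseudocount of 10 the members lower by at least 1 were 1 for 16 h against 2 h, 1 for 36 h against 16 h and 0 for 16-h/S against 16-h/F. With ratios of means 1 member was higher between 36 h and 16 h, and with the ERCC limit 2 were higher between 16-h/S and 16-h/F. Between 36-h/S and 36-h/F, 1 was lower under the ERCC limit, the pseudocount and ratios of means, and 0 were higher under all 5 alternatives. Causes were not tested.

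Over all genes, a difference of at least 2 was reached by 170 lower and 273 higher genes for 36 h against 2 h, 25 and 57 for 16 h against 2 h, 32 and 123 for 36 h against 16 h, 43 and 6 for 16-h/S against 16-h/F, and 151 and 36 for 36-h/S against 36-h/F. With a filter of 10% of cells, and equally with no filter, 1095, 496, 648, 217 and 381 genes were higher in the same order of comparisons. Thinning moved the share of cells with reads beyond its interval for URA8 at each age and for URA4 at 16 h (53.5%). Levels of genes with few reads per cell are limited by depth.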
